A study of Mus musculus with 12 samples.

Results

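Sodium leaves the tubular fluid in the last segments of the nephron through the epithelial sodium channel ENaC, under the control of the steroid hormone aldosterone. The 9 genes described here encode the channel, its regulators, the aldosterone receptor with its guarding enzyme, and parts of the sodium pump: Scnn1a, Scnn1b, Scnn1g, Nedd4l, Sgk1, Hsd11b2, Nr3c2, Fxyd4 and Atp1b1. They were chosen by name from the 57180 genes of the count files, and all 9 passed the filter on low counts that left 17163 genes for testing. RNA was sequenced from kidneys of 12 male C57BL/6J mice, 4 in each of 3 groups, which were 60 days old at the start and differed in the dose of cannabidiol (CBD). Mice of the control group received saline with 2% Tween 80, and mice of the other groups received 10 or 20 mg CBD/kg b.w. in the same vehicle, by daily intraperitoneal injection for 28 days. Each library came from 1 mouse, and the RNA came from small scrapes of kidney whose region is not named. The sources used here do not give the hour of killing. In bulk RNA of this kind, fewer cells of a type and less RNA per cell cannot be told apart.

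Aldosterone enters principal cells of the connecting tubule and collecting duct and binds the mineralocorticoid receptor, which switches on genes such as Sgk1 and Scnn1a. The kinase SGK1 phosphorylates the ubiquitin ligase NEDD4-2 and so keeps ENaC at the cell surface, and the sodium pump then moves the sodium out across the basolateral membrane. The circadian clock is known to act on this pathway, since the clock protein PER1 regulates Scnn1a, and the deubiquitinase gene Usp2 is an output of the clock.

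The libraries held between 15417867 and 23532088 counts on genes. Levels are given as CPM, counts scaled to a common library size after normalization by the trimmed mean of M values (TMM), in the order of mice 1 to 4 of each group. A gene was called where edgeR's quasi-likelihood test gave a Benjamini-Hochberg adjusted p under 0.1, with all 17163 genes in the adjustment. Of the nephron markers, all 6 of intercalated cells, 7 of 8 markers of principal cells and all 4 markers each of the connecting tubule, the thick ascending limb and the proximal tubule passed the filter, whereas 1 of 6 adrenal cortex markers passed. In 4 libraries, mitochondrially encoded genes took under 10% of the counts: control mouse 2, mice 1 and 3 of the group treated with 10 mg, and mouse 3 of the group treated with 20 mg. Their shares ranged from 3.53% upward, whereas the highest share of any library was 23.4%. Several of the 9 genes varied with this share, and values without these libraries are given beside them.

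None of the 9 genes was called at 10 mg, where edgeR called 0.0291% of all genes tested. At 20 mg none was called either, beside 0.303% of all genes. DESeq2 and limma-voom also called 0 of 9 at both doses, beside 0.233% and 0.0291% of all genes at 10 mg and 1.06% and 0.28% at 20 mg. At an unadjusted p under 0.05, edgeR gave 1 of 9 genes at 10 mg, Nr3c2, and 0 of 9 at 20 mg, beside 5.67% and 8.45% of all genes. In no gene did the 4 treated mice all lie above or all below the 4 control mice, which was the case for 3.19% of all genes at 10 mg and 5.3% at 20 mg. The median log2 fold change of the 9 genes was 0.08 at 10 mg and 0.07 at 20 mg, beside medians of 0.01 over all genes at each dose. Both comparisons share the same 4 control mice. The 95% intervals of the fold changes lay within 0.487-fold and 1.93-fold at 10 mg, and within 0.599-fold and 1.69-fold at 20 mg.

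**Figure D1:**
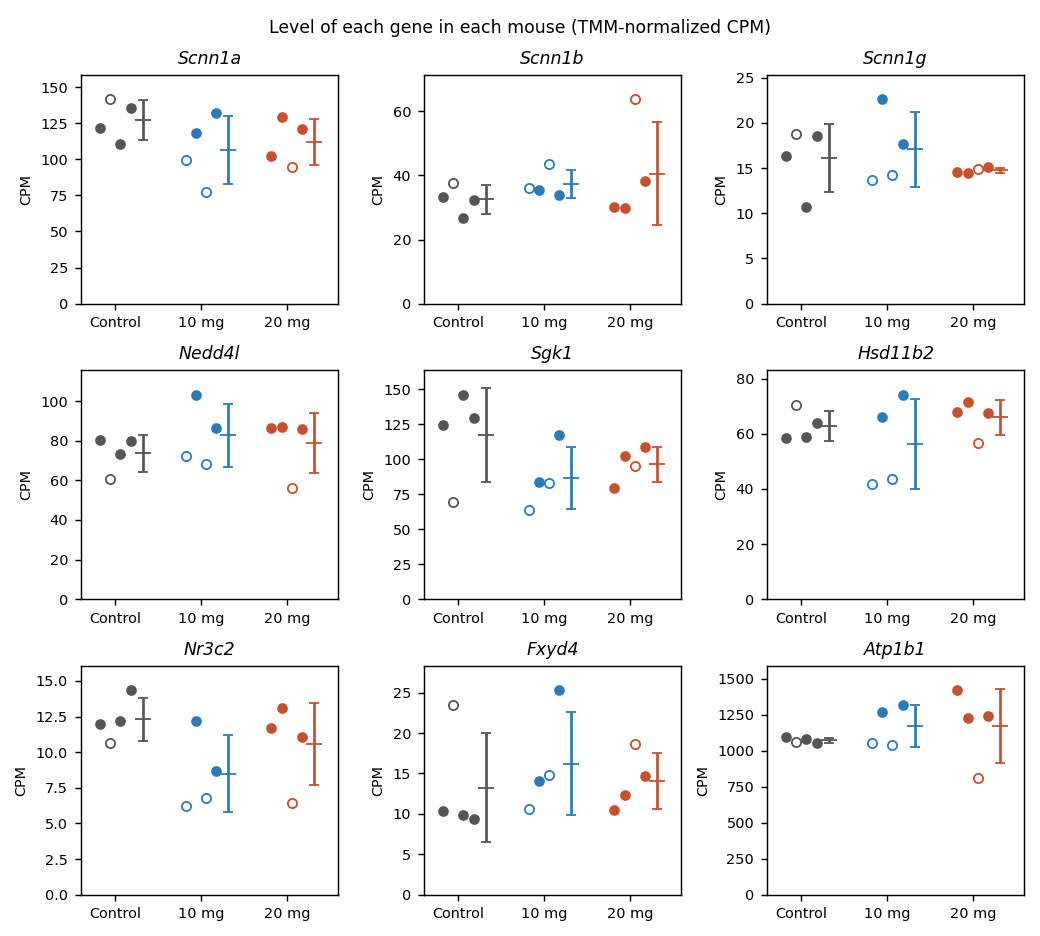
Level of each of the 9 genes (vertical axis, TMM-normalized CPM from 0) in each mouse of the control group and the groups treated with 10 or 20 mg CBD/kg b.w. Points are mice 1 to 4, open points are the 4 libraries with a mitochondrial share under 10%, and bars give mean ± SD (n = 4); the groups overlap in every panel, and Nedd4l in the open points is below all other libraries.

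In the control group the 9 genes differed widely in level per length of transcript. Atp1b1 stood highest at 221 CPM per kilobase of exon, and its range did not reach that of any other gene. Hsd11b2 at 33.9 and Scnn1a at 30.8 CPM per kilobase had overlapping ranges, and Scnn1a lay above Sgk1 at 19.5 without overlap. Scnn1b followed at 11.0, Fxyd4 at 6.07, Scnn1g at 5.02 and Nedd4l at 3.33 CPM per kilobase, and among these 4 genes each range overlapped that of its neighbour in the order. The range of Sgk1 also overlapped that of Scnn1b. Nr3c2 had the lowest level, 1.44 CPM per kilobase, below the range of Nedd4l. As these are levels per kilobase of all annotated exons, genes with many annotated isoforms such as Nedd4l are placed low by their length.

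Scnn1a (ENSMUSG00000030340, chr6:125297622-125321906 of GRCm39, plus strand) encodes the α subunit, without which the channel does not reach the membrane. Its level was 122, 142, 111 and 136 CPM in the control mice, 99.2, 118, 77.1 and 132 CPM in the mice given 10 mg, and 102, 129.6, 95.0 and 121 CPM in the mice given 20 mg. The lowest value of the study belonged to mouse 3 of the 10 mg group, and both treated groups overlapped the control group. In log2, the fold change was -0.26 ± 0.16 (SE from the fit of all 12 libraries, n = 4 per group) at 10 mg (edgeR adjusted p = 0.893) and -0.19 ± 0.16 at 20 mg (edgeR adjusted p = 0.819). Without the 4 libraries of low mitochondrial share the value at 10 mg was 0.022, of the opposite sign, and that at 20 mg was -0.061.

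Scnn1b (ENSMUSG00000030873, chr7:121463946-121517737, plus strand) encodes the β subunit, whose cytoplasmic tail carries the motif that NEDD4-2 binds. Its level was 33.2, 37.8, 26.8 and 32.3 CPM in the control mice, 36.1, 35.4, 43.6 and 33.9 CPM at 10 mg and 30.2, 30.0, 63.8 and 38.2 CPM at 20 mg. Mouse 3 of the 20 mg group was the highest of all 12, and it is also the library with low mitochondrial share in its group. Relative to control, the log2 fold change was 0.20 ± 0.21 at 10 mg (edgeR adjusted p = 0.929) and 0.32 ± 0.21 at 20 mg (edgeR adjusted p = 0.741). Leaving out mouse 3 of the 20 mg group took the value at 20 mg to 0.011, and leaving out all 4 libraries of low mitochondrial share took it to 0.094. Cog7 overlaps Scnn1b on the other strand, and the strand setting of the counting is not given in the sources used here, so reads of both genes may not have been told apart.

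Scnn1g (ENSMUSG00000000216, chr7:121333545-121367755, plus strand), the gene of the γ subunit, lies on the same chromosome next to Scnn1b. Its level was 16.3, 18.7, 10.7 and 18.6 CPM in the control mice, 13.7, 22.6, 14.2 and 17.7 CPM at 10 mg and 14.6, 14.5, 14.9 and 15.1 CPM at 20 mg. The 4 mice given 20 mg lay close together, inside the range of the control mice. edgeR gave a log2 fold change of 0.08 ± 0.19 at 10 mg (edgeR adjusted p = 0.972) and -0.12 ± 0.19 at 20 mg (edgeR adjusted p = 0.907). In the 8 other libraries, without those of low mitochondrial share, the values were 0.40 ± 0.19 at 10 mg (edgeR adjusted p = 0.877), with 2 mice left in that group, and -0.045 at 20 mg.

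ENaC is assembled from all of these subunits, so they were also set against each other within each library, which does not depend on scaling between libraries. Scnn1b stood at 27.2, 26.7, 24.2 and 23.8% of the CPM of Scnn1a in the control mice, at 36.4, 30.0, 56.6 and 25.7% at 10 mg and at 29.6, 23.1, 67.2 and 31.6% at 20 mg. The control mice were tightly grouped, and the 2 highest ratios belonged to mouse 3 of each treated group, both with low mitochondrial share. The difference in mean log2 ratio from the control group was 0.48 at 10 mg (exact permutation p = 0.0857, two-sided, adjusted p = 0.386 over 9 ratio tests) and 0.45 at 20 mg (exact permutation p = 0.171, adjusted p = 0.45). For Scnn1g against Scnn1a the differences were 0.37 at 10 mg (exact permutation p = 0.0571, adjusted p = 0.386) and 0.10 at 20 mg (exact permutation p = 0.571, adjusted p = 0.771). With 4 mice against 4, the smallest p of this test is 0.0286. After adjustment over 9 tests, a single ratio at that value could not pass 0.1, so these adjusted p-values cannot show an absence of change.

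**Figure D2:**
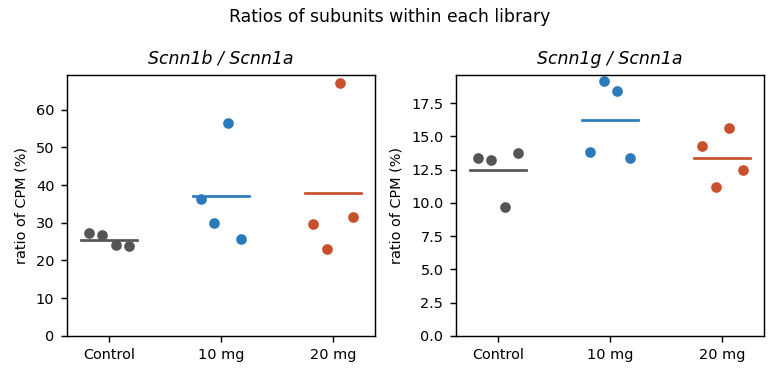
Ratio of CPM in percent (vertical axis from 0) of Scnn1b to Scnn1a and Scnn1g to Scnn1a within each library, by group. Points are mice and lines are group means (n = 4); for Scnn1b to Scnn1a the control mice sit between 23.8 and 27.2%, and mouse 3 of each treated group stands highest at 56.6 and 67.2%.

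Sgk1 (ENSMUSG00000019970, chr10:21758083-21875802, plus strand) encodes the aldosterone-induced kinase that keeps the channel at the membrane. Its level was 124, 69.4, 146 and 129.8 CPM in the control mice, 63.9, 84.1, 82.9 and 117 CPM at 10 mg and 79.5, 103, 95.4 and 109 CPM at 20 mg. Of the control mice, 3 lay above all 8 treated mice, while control mouse 2 lay below 7 of them. Its log2 fold change was -0.43 ± 0.21 at 10 mg (edgeR adjusted p = 0.870) and -0.28 ± 0.21 at 20 mg (edgeR adjusted p = 0.789). Control mouse 2 is a library of low mitochondrial share. Without all 4 such libraries, the value was -0.41 at 10 mg (edgeR adjusted p = 0.730) and -0.46 at 20 mg (edgeR adjusted p = 0.251), and neither was called.

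Nedd4l (ENSMUSG00000024589) encodes NEDD4-2, the ligase that removes ENaC from the membrane. Its level was 80.6, 60.7, 73.4 and 79.9 CPM in the control mice, 72.5, 103, 68.4 and 86.5 CPM at 10 mg and 86.3, 86.8, 56.0 and 86.0 CPM at 20 mg. The 4 libraries of low mitochondrial share, at 56.0 to 72.5 CPM, were below all 8 others, at 73.4 to 103 CPM, whatever their group. In log2, the fold change was 0.17 ± 0.17 at 10 mg (edgeR adjusted p = 0.927) and 0.10 ± 0.17 at 20 mg (edgeR adjusted p = 0.925). With these 4 libraries left out the values were 0.28 at 10 mg and 0.15 at 20 mg (edgeR adjusted p = 0.789 and 0.727). Antisense transcripts overlap Nedd4l in the annotation, so its counts carry the same limit of strand as those of Scnn1b. Antisense transcripts also overlap Scnn1a, Sgk1 and Nr3c2, whose counts carry this limit too.

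Nr3c2 (ENSMUSG00000031618, chr8:77625576-77971863, plus strand) encodes the mineralocorticoid receptor itself. Its level was 12.0, 10.6, 12.2 and 14.4 CPM in the control mice, 6.23, 12.2, 6.78 and 8.69 CPM at 10 mg and 11.7, 13.1, 6.42 and 11.1 CPM at 20 mg. At 10 mg, 3 of 4 mice were below all control mice and mouse 2 was within their range. The log2 fold change at 10 mg was -0.54 ± 0.23, with a 95% interval of -1.04 to -0.05, an unadjusted p of 0.0327 and an adjusted p of 0.828 in edgeR. An exact permutation test of the same 8 mice gave p = 0.114, two-sided. At 20 mg the value was -0.22 ± 0.23 (edgeR adjusted p = 0.862). The 3 lowest values of the study, 6.23, 6.42 and 6.78 CPM, belonged to the 3 treated libraries of low mitochondrial share. Without the 4 libraries of low share the values were -0.30 at 10 mg and -0.10 at 20 mg. As the receptor gave only 107 to 286 counts per library, its counting error is larger than that of the other genes with more counts.

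Hsd11b2 (ENSMUSG00000031891, chr8:106245369-106250620, plus strand) encodes the dehydrogenase that inactivates glucocorticoids in the same cells and so leaves the receptor to aldosterone. Its level was 58.5, 70.3, 58.9 and 63.9 CPM in the control mice, 41.6, 66.2, 43.5 and 74.2 CPM at 10 mg and 68.1, 71.4, 56.7 and 67.5 CPM at 20 mg. The 10 mg group was split, with mice 1 and 3 below all control mice and mouse 4 above them. Relative to control, the log2 fold change was -0.16 ± 0.17 at 10 mg (edgeR adjusted p = 0.930) and 0.07 ± 0.17 at 20 mg (edgeR adjusted p = 0.955). The 2 low mice are the libraries of low mitochondrial share in that group, and without the 4 libraries of low share the value at 10 mg was 0.21.

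Atp1b1 (ENSMUSG00000026576, chr1:164264678-164285957, minus strand) encodes the β subunit of the sodium pump, which carries the pump to the membrane in all tubule segments. Its level was 1094, 1063, 1083 and 1051 CPM in the control mice, 1057, 1271, 1038 and 1321 CPM at 10 mg and 1421, 1225, 811 and 1241 CPM at 20 mg. The control mice spanned a narrow range, whereas the treated mice lay both above and below it. edgeR gave a log2 fold change of 0.13 ± 0.16 at each dose (edgeR adjusted p = 0.938 at 10 mg and 0.885 at 20 mg). The lowest value, in mouse 3 of the 20 mg group, belonged to a library of low mitochondrial share. Without the 4 such libraries the values were 0.26 at 10 mg and 0.27 at 20 mg, and neither was called. Nme7 overlaps Atp1b1 on the other strand.

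Fxyd4 (ENSMUSG00000004988, chr6:117910299-117914653, minus strand) encodes CHIF, a small collecting duct protein that raises the affinity of the pump for sodium. Its level was 10.4, 23.4, 9.87 and 9.35 CPM in the control mice, 10.6, 14.1, 14.8 and 25.3 CPM at 10 mg and 10.5, 12.4, 18.6 and 14.7 CPM at 20 mg. Control mouse 2 stood apart from the other control mice and exceeded 7 of the 8 treated mice, while the other 3 control mice were below all treated mice. Its log2 fold change was 0.29 ± 0.31 at 10 mg (edgeR adjusted p = 0.930) and 0.08 ± 0.31 at 20 mg (edgeR adjusted p = 0.976). Without the 4 libraries of low mitochondrial share, control mouse 2 among them, the value at 10 mg was 1.00 ± 0.21 (edgeR adjusted p = 0.102), just short of the call, with 2 mice left in that group. The value at 20 mg was then 0.35 (edgeR adjusted p = 0.611). Fxyd4 was highest in control mouse 2, mouse 4 of the 10 mg group and mouse 3 of the 20 mg group. The same mice had the highest level of the principal cell marker Aqp2 in their groups, 109, 109 and 112 CPM. The part of principal cell content in the values of Fxyd4 was not tested.

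**Figure D3:**
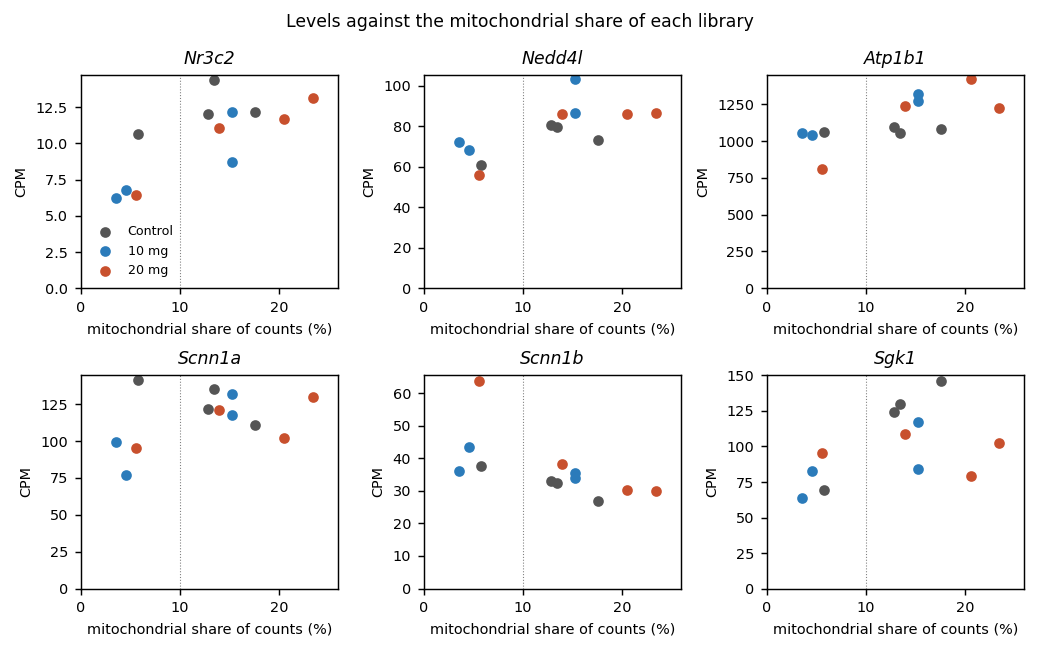
Level of 6 of the 9 genes (vertical axis, CPM from 0) against the share of counts on mitochondrially encoded genes (horizontal axis, percent) in the 12 libraries, coloured by group, with a dotted line at 10%. The 4 libraries to the left of the line hold the lowest Nedd4l levels, 56.0 to 72.5 CPM, and 3 of them hold the lowest Nr3c2 levels, 6.23 to 6.78 CPM.

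Between the doses, edgeR called none of the 9 genes and 0% of all genes tested, while 6.31% of all genes had an unadjusted p under 0.05, none of them among the 9. Groups without overlap were found for 0 of 9 genes, beside 3.1% of all genes. DESeq2 called 0.0699% of all genes in this comparison and limma-voom 0%, with none of the 9 in either. Nr3c2 had the largest difference of the 9, 0.33 ± 0.23 in log2 (20 mg minus 10 mg, edgeR adjusted p = 0.862). When both doses were averaged and set against control, 0 of 9 genes were called in edgeR, DESeq2 and limma-voom, beside 0.14%, 0.792% and 0.146% of all genes. Of all genes, edgeR called 0.0466% higher and 0.0932% lower in this comparison. An unadjusted p under 0.05 was found for 0 of 9 and for 7.04% of all genes, and groups without overlap for 0 of 9 and 0.862%. The values furthest from 0 were -0.38 ± 0.20 for Nr3c2 and -0.36 ± 0.18 for Sgk1 (edgeR adjusted p = 0.732 for each).

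**Figure D4:**
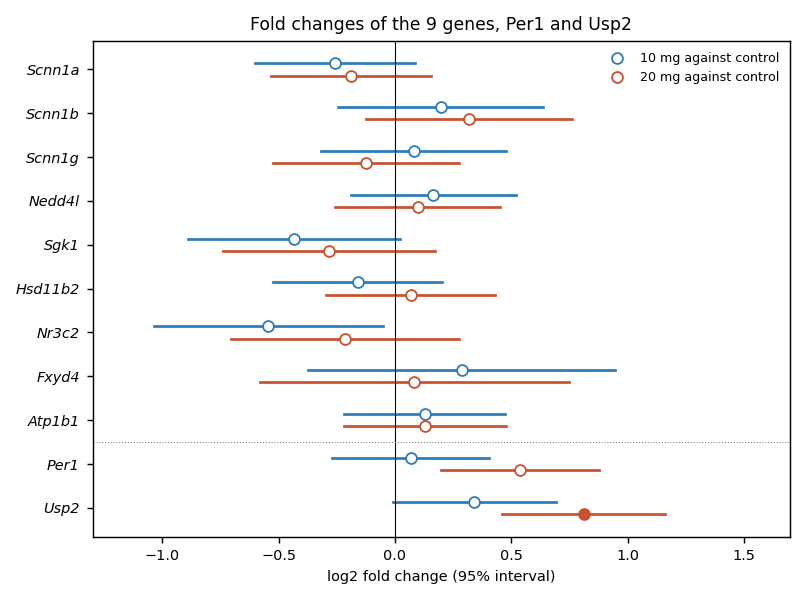
Log2 fold change (horizontal axis) with its 95% interval for the 9 genes and, under the dotted line, the clock gene Per1 and the deubiquitinase gene Usp2, at 10 mg and 20 mg against control. Filled points passed an adjusted p under 0.1 in edgeR; Usp2 at 20 mg is the only filled point, at 0.81, and Nr3c2 at 10 mg is the only one of the 9 genes whose interval, -1.04 to -0.05, leaves out 0.

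Genes around the channel were read from the same test. Of 12 genes that process ENaC or control its turnover, 1 was called higher at 20 mg (0.169% of all genes were called higher) and 0 at 10 mg. It was Usp2, which encodes a deubiquitinase known to counter NEDD4-2 at the channel. The level of Usp2 was 80.2, 101, 107 and 87.9 CPM in the control mice, 118, 119, 116 and 123 CPM at 10 mg and 124, 141, 227 and 168 CPM at 20 mg. No treated mouse was as low as any control mouse, and no mouse given 20 mg was as low as any given 10 mg. Of all genes, 0.862% had all treated mice apart from control and 3.1% had no overlap between the doses. In log2, the fold change of Usp2 was 0.34 ± 0.16 at 10 mg (edgeR adjusted p = 0.870) and 0.81 ± 0.16 at 20 mg (edgeR adjusted p = 0.0771). Usp2 was also called at 20 mg by DESeq2 (DESeq2 adjusted p = 0.0018) and limma-voom (limma-voom adjusted p = 0.0861). The edgeR call at 20 mg was lost without any 1 of 9 of the 12 libraries. They were control mice 1 to 4, mice 3 and 4 given 10 mg, and mice 2, 3 and 4 given 20 mg. Over all 12 such fits the log2 fold changes were 0.62 to 0.92. Without the 4 libraries of low mitochondrial share the value was 0.65 (edgeR adjusted p = 0.0475). The other 11 genes of the group were not called. Among these, Wnk1 and Usp10 had the largest values at 20 mg, -0.36 ± 0.14 (edgeR adjusted p = 0.503) and -0.25 ± 0.10 (edgeR adjusted p = 0.526). With the mitochondrial share as a covariate, Wnk1 passed the threshold at 20 mg (-0.41, edgeR adjusted p = 0.0527).

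Of 10 genes known to be induced by corticosteroids, edgeR called 0 at 10 mg and 1 higher at 20 mg. Per1 is in this list and also among the 16 clock genes given below, so the 2 lists are not separate. Over all genes, edgeR called 0.0117% higher at 10 mg and 0.169% higher at 20 mg. DESeq2 called 3 of the 10 at 20 mg, beside 1.06% of all genes. The gene called by edgeR was Ddit4, an inhibitor of mTOR signalling, with a log2 fold change of 1.09 ± 0.23 (edgeR adjusted p = 0.0849). Ddit4 was also called at 20 mg by DESeq2 (DESeq2 adjusted p = 0.0017) and limma-voom (limma-voom adjusted p = 0.0678). Ddit4 was at 16.1, 11.0, 13.5 and 8.16 CPM in the control mice and at 24.7, 27.4, 27.3 and 25.1 CPM in the mice given 20 mg. These groups did not overlap, which was the case for 5.3% of all genes. The edgeR call of Ddit4 too was lost without any 1 of 9 of the 12 libraries. They were control mice 1 to 4, mouse 3 given 10 mg and mice 1 to 4 given 20 mg. The median of the 10 genes was 0.40 at 20 mg and 0.05 at 10 mg, beside 0.01 over all genes at each dose. Positive values were held by 9 of the 10 genes at 20 mg and by 7 at 10 mg. Tsc22d3, which encodes GILZ, stood at 0.83 ± 0.22 at 20 mg (edgeR adjusted p = 0.270, DESeq2 adjusted p = 0.0541). The third gene called by DESeq2 was Fkbp5, which encodes a chaperone partner of steroid receptors and is named after its values were seen, at 0.72 ± 0.18 in edgeR (adjusted p = 0.239, DESeq2 adjusted p = 0.0512). Tsc22d3 also passed at 20 mg in edgeR with the mitochondrial share as a covariate (adjusted p = 0.0150) and with no filter on low counts (adjusted p = 9.4e-05). Zbtb16 stood at 1.07 ± 0.32 at 10 mg (edgeR adjusted p = 0.796) and at 0.48 ± 0.32 at 20 mg (edgeR adjusted p = 0.753). With no filter on low counts Zbtb16 passed at 10 mg (1.04, edgeR adjusted p = 3.6e-06). Sgk1, which belongs to the same kind of genes, had negative values at both doses, as given above.

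Of the 3 partners of the receptor system, 0 were called at either dose. The glucocorticoid receptor gene Nr3c1 stood at -0.25 ± 0.13 at 10 mg and -0.34 ± 0.13 at 20 mg (edgeR adjusted p = 0.870 and 0.481), and with the mitochondrial share as a covariate it passed at 20 mg (-0.37, edgeR adjusted p = 0.0739). Hsd11b1, whose enzyme regenerates active glucocorticoid, stood at 0.18 ± 0.23 and 0.37 ± 0.23 (edgeR adjusted p = 0.937 and 0.728). Of 11 further genes of the sodium pump and its FXYD partners 8 were tested and 0 called, with Atp1b2 at 0.62 ± 0.23 at 20 mg (edgeR adjusted p = 0.474). Atp1b2 passed at 20 mg with the mitochondrial share as a covariate (0.48, edgeR adjusted p = 0.0590) and with no filter on low counts (0.61, edgeR adjusted p = 0.0888). Of 5 genes of potassium secretion 4 were tested and 0 called, the potassium channel gene Kcnj1 among them. Kcnj1, at 108 to 130 CPM in the control mice, also counts in the principal cell markers below. How much of its RNA came from other segments was not tested. The 7 tested markers of principal cells had a median log2 fold change of 0.04 at 10 mg and 0.14 at 20 mg, with 0 called. The summed level of these markers was 286 to 427 CPM in the control mice, 322 to 449 CPM at 10 mg and 302 to 428 CPM at 20 mg, so the groups overlapped.

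Markers of the connecting tubule, where ENaC is also made, had negative values throughout. Of 4 such genes, 0 were called at 10 mg and 1 was called lower at 20 mg (0.134% of all genes were called lower), and the median was -0.45 at 10 mg and -0.74 at 20 mg. The called gene was Slc8a1, the basolateral sodium-calcium exchanger, which fell by 0.87 ± 0.15 in log2 at 20 mg (edgeR adjusted p = 0.0340). Slc8a1 was also called at 20 mg by DESeq2 (DESeq2 adjusted p = 2.5e-05) and limma-voom (limma-voom adjusted p = 0.0341). Slc8a1 stood at 91.0, 89.6, 74.2 and 93.3 CPM in the control mice, 48.8, 69.6, 50.6 and 66.8 CPM at 10 mg and 47.0, 55.9, 39.4 and 48.1 CPM at 20 mg, so no treated mouse reached the control range. Such a separation, up or down, was found for 0.862% of all genes. The edgeR call of Slc8a1 at 20 mg was lost without control mouse 1, 2 or 4. The log2 fold changes were then -0.85, -0.86 and -0.84. With no filter on low counts Slc8a1 also passed at 10 mg (-0.59, edgeR adjusted p = 0.0308). The calcium-binding protein gene Calb1 stood at -0.49 ± 0.22 and -0.91 ± 0.22 (edgeR adjusted p = 0.843 and 0.168). At 20 mg Calb1 passed in DESeq2 (adjusted p = 0.0134), and in edgeR with the mitochondrial share as a covariate (adjusted p = 0.0273) and without control mouse 3 (adjusted p = 0.0191). It also passed at 20 mg with no filter on low counts (-0.93, edgeR adjusted p = 4.6e-06). With the 4 libraries of low mitochondrial share left out it stood at -0.17 and -0.68 (edgeR adjusted p = 0.988 and 0.211). Summed over the 4 markers, the level was 1046 to 1766 CPM in the control mice, 1007 to 1230.0 CPM at 10 mg and 924 to 1256 CPM at 20 mg. The part of connecting tubule content in the values of the 9 genes was not tested.

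Markers of other cells were read in the same way. All 3 markers of the distal convoluted tubule had negative values at both doses with 0 called. Of 4 proximal tubule markers, 1, Slc5a2, was called lower at 20 mg (-0.61 ± 0.12, edgeR adjusted p = 0.0820), beside 0.134% of all genes. At 20 mg DESeq2 called 2 of the 4 markers, beside 1.06% of all genes, and limma-voom 1, beside 0.28%. Slc5a2 was called by both (DESeq2 adjusted p = 0.00064, limma-voom adjusted p = 0.0716). The edgeR call was lost without any 1 of 8 of the 12 libraries, namely each control mouse and each mouse given 20 mg. The proximal tubule markers had 3 negative values at 10 mg and 4 at 20 mg, with medians of -0.22 and -0.42. Their summed level was 6026 to 7670 CPM in the control mice, 5157 to 6016 CPM at 10 mg and 4980 to 5401 CPM at 20 mg. No treated mouse reached the control range, a separation found for 0.862% of single genes. The summed level of 4 adipocyte markers was 96.0 to 257 CPM in the control mice, 67.8 to 135 CPM at 10 mg and 67.9 to 114 CPM at 20 mg, with 0 called by edgeR and all 4 values negative. Their median log2 fold change was -1.62 at 10 mg and -2.84 at 20 mg. An unadjusted p under 0.05 in edgeR was found for 5.67% and 8.45% of all genes, and for 2 and 4 of these markers. DESeq2 called 1 of them at 20 mg, Fabp4, which is also expressed in endothelial cells and is named after its values were seen (-0.74 ± 0.21 in edgeR, adjusted p = 0.312, DESeq2 adjusted p = 0.0799). Of the 6 intercalated cell markers, 4 thick ascending limb markers and 3 inner medulla markers, 0 were called at either dose. Of the intercalated cell markers 5 had negative values at each dose. Their summed level was 392 to 482 CPM in the control mice, 372 to 412 CPM at 10 mg and 373 to 388 CPM at 20 mg. The 20 mg group lay below all control mice, and 5.3% of single genes had no overlap in this comparison. Positive values were held by 4 thick ascending limb markers at 10 mg and 1 at 20 mg, and by 2 and 1 inner medulla markers. The part of these markers in the values of the 9 genes was not tested.

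Clock genes were called in the same libraries. Of 16 clock genes, 2 were called higher and 1 lower at 10 mg, where 0.0117% and 0.0175% of all genes were. At 20 mg 6 were called higher and 4 lower, beside 0.169% and 0.134% of all genes. Dbp, a transcription factor at the output of the clock, stood at 1.43 to 2.92 CPM in the control mice, 12.9 to 19.6 CPM at 10 mg and 22.1 to 26.9 CPM at 20 mg. Bmal1 and Npas2, which drive clock transcription from E-boxes, stood at -1.02 ± 0.20 and -1.42 ± 0.23 at 10 mg and at -1.21 ± 0.20 and -1.44 ± 0.23 at 20 mg, with Npas2 called at both doses (edgeR adjusted p = 0.0792 and 0.0258) and Bmal1 at 20 mg (edgeR adjusted p = 0.0340). Per1, the clock gene most closely tied to Scnn1a, was not called at either dose in the fit used throughout. Its level was 48.7, 46.0, 66.2 and 56.9 CPM in the control mice, 42.8, 67.7, 54.5 and 63.5 CPM at 10 mg and 69.5, 90.8, 72.0 and 83.8 CPM at 20 mg. The lowest mouse given 20 mg lay above the highest control mouse, with a log2 fold change of 0.54 ± 0.16 (edgeR adjusted p = 0.342), while the value at 10 mg was 0.07 ± 0.16 (edgeR adjusted p = 0.972). Of all genes, 5.3% had no overlap between the 20 mg and control groups. At 20 mg Per1 passed with the mitochondrial share as a covariate (0.49, edgeR adjusted p = 0.0279) and with no filter on low counts (0.52, edgeR adjusted p = 0.0855). The median absolute log2 fold change of the 16 clock genes was 0.70 at 10 mg and 1.25 at 20 mg, that of the 9 sodium transport genes 0.20 and 0.13, and that of all genes 0.15 and 0.16.

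**Figure D5:**
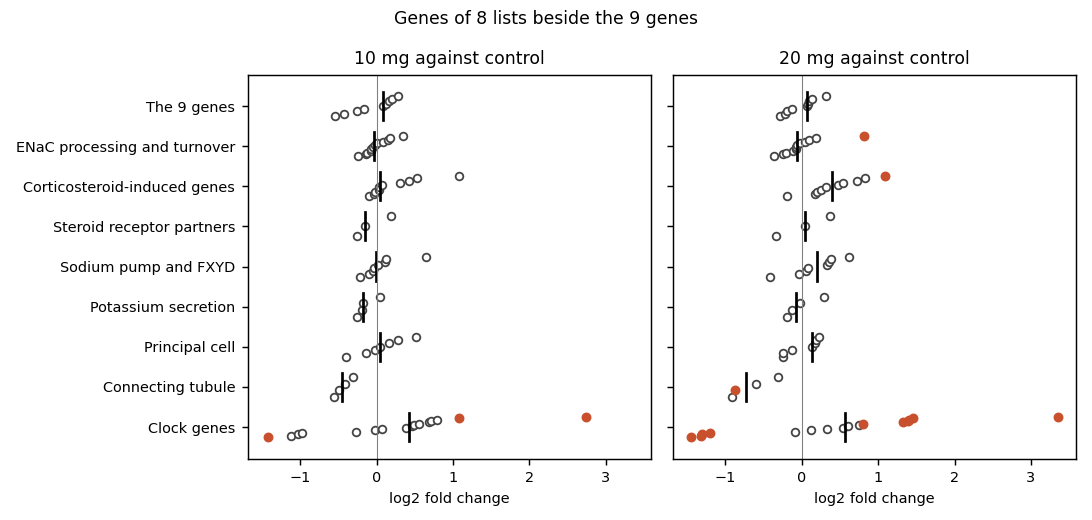
Log2 fold change (horizontal axis) of each tested gene of 8 lists and of the 9 sodium transport genes, at 10 mg and 20 mg against control. Open points were not called, filled points passed an adjusted p under 0.1 in edgeR and vertical bars are list medians; 10 of 16 clock genes are filled at 20 mg, and 0 of the 9 genes are filled at either dose.

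Since E-boxes are the elements through which the clock activates its targets, the 250 bases before the start of the canonical transcript were searched in GRCm39 on both strands. The E-box letters CACGTG occurred in 7.6% of the 13762 such windows of genes tested, and in 0 of the 9 windows of the sodium transport genes. The D-box letters TTANGTAA, bound by DBP, occurred in 1.58% of all windows and in 0 of the 9. The half-site AGAACA of the corticosteroid receptors occurred in 11.8% of all windows and in 1 of the 9, that of Scnn1b. The windows of Usp2 and Per1 each held 1 E-box, beginning 104 and 22 bases before the start. Those of Dbp and Tsc22d3, which were also searched, held 0 E-boxes, 0 D-boxes and 0 half-sites. A match of these letters is a description and not a binding site, and the absence of a match in 250 bases says nothing of sites elsewhere. Annotated exons overlapped the windows of Scnn1a, Sgk1, Nr3c2, Fxyd4 and Atp1b1, and also those of Usp2, Dbp and Tsc22d3. The windows of Scnn1a, Sgk1, Nr3c2 and Fxyd4 lay inside the annotated gene. Starts of their other transcripts were not searched. The windows of the β and γ subunit genes and of Per1 are shown because they set promoters without and with the E-box beside each other. They are written 5′ to 3′ on the plus strand, which is the strand of all 3 genes, and capitals mark TGTTCT, the half-site on the other strand, in Scnn1b, and the E-box in Per1. For Usp2, 30 bases around the E-box are shown.
Scnn1b, chr7:121463696-121463945: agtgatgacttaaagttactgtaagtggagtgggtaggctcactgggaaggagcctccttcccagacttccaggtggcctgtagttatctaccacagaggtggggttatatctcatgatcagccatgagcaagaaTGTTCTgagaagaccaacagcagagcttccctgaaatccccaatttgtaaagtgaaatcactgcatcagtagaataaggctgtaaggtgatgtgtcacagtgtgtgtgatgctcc
Scnn1g, chr7:121333295-121333544: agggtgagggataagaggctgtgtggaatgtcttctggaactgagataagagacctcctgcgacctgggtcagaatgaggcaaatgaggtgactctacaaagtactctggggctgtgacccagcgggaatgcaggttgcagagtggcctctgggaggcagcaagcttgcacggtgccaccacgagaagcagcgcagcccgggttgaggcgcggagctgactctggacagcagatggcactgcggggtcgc
Per1, chr11:68989018-68989267: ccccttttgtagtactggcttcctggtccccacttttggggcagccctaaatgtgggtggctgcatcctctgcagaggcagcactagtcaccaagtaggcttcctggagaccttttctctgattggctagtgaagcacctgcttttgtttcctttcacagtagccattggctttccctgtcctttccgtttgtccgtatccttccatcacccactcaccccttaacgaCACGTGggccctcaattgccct
Usp2, chr9:43978148-43978177: gtgctttttctcCACGTGgttctctgtata

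The genes whose levels followed each of the 9 most closely over the 12 libraries were searched among 14675 genes with a mean of at least 1 CPM, by Pearson's r of log2 CPM after subtraction of the group means, as a description only. The closest were Srgap3 for Scnn1a (r = 0.935), Slc2a8 for Scnn1b (r = 0.976), Fdft1 for Scnn1g (r = 0.884), Nhsl1 for Nedd4l (r = 0.983) and Ddt for Sgk1 (r = 0.892). They were Tmem72 for Hsd11b2 (r = 0.984), Adgrl2 for Nr3c2 (r = 0.985), Lfng for Fxyd4 (r = 0.950) and Mtm1 for Atp1b1 (r = 0.982). The 12 libraries include the 4 of low mitochondrial share, whose part in these correlations was not tested.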

How the data were processed

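Poly(A) RNA from kidneys of 12 mice was sequenced as paired reads. After trimming in Flexbar, the authors aligned reads by STAR (2.7.5c) against GRCm39 and counted them with htseq-count (1.99.2), and the deposited files hold these counts, unnormalized, for 57180 Ensembl genes. The annotation release, strand setting and use of molecular identifiers are not given in the sources used here. The counting tool's summary lines were left out. Of the gene identifiers, 99.0% were found in GENCODE vM39. Promoter windows were read from GRCm39.

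Counts were tested with edgeR 4.0.16 in R 4.3.3 (filterByExpr, TMM, quasi-likelihood test with a mean per group over all 12 libraries). Benjamini-Hochberg adjustment covered 17163 genes, with the study's threshold of 0.1. Intervals are 95% intervals from the same fit. Ratios within libraries were compared by exact permutation tests on log2 CPM (prior count 2), adjusted over 9 tests, of which the 3 of 1 further ratio are not reported here. The totals of 15417867 to 23532088 counts per library limit the precision of low genes. The edgeR p-values and standard errors rest on the spread within groups of 4 mice, estimated over all 12 libraries and moderated across genes. The 9 genes and the lists were chosen with earlier results of these data known. All 9 are named. Genes named from the other lists were called or were among the 3 with the largest change for the mean of both doses. Besides these, partners of the 9 genes (Aqp2, Kcnj1 and Per1) were named, and for each of the 9 the gene with the highest correlation. Of the clock genes called at 20 mg, only Dbp, Bmal1 and Npas2 are named. On simulated counts of 16846 genes for the comparison of 20 mg with control, edgeR recovered 73.2% of 2-fold and 95.9% of 4-fold changes. Of the edgeR calls on these counts, 5.75% were unchanged genes. Whether these rates hold for the 12 libraries, which differed in mitochondrial share, was not tested.

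Alternatives were RLE and upper-quartile normalization, DESeq2 1.42.0, limma-voom (limma 3.58.1), other filters on low counts, a replicate block, a fit of the compared groups alone, the mitochondrial share or the principal cell marker level as a covariate, removal of mitochondrial and ribosomal RNA genes, a threshold of 0.05, a prior count of 0.5 for ratios, and leaving out each library. A fit without the 4 libraries of low mitochondrial share was added after the data were seen.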

Additional observations from a re-analysis of the deposited data

Results flagged for a closer look

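In groups of 4 mice, a value was marked when its gap to the nearest other mouse, as a share of the group's range in log2, was above Dixon's 95% critical value. Of 33 groups of values for the 9 genes and the ratios, 3 were marked, where chance marks about 1 in 20. Nedd4l in mouse 3 of the 20 mg group, at 56.0 CPM beside 86.0 to 86.8 CPM in the other mice, had a gap of 0.978 of the range. Fxyd4 in control mouse 2, at 23.4 CPM beside 9.35 to 10.4 CPM, had a gap of 0.888 of the range. Both are libraries of low mitochondrial share, with mitochondrial genes at 5.54% and 5.77% of the counts. Over all libraries, however, Fxyd4 was not split by this share, at 10.6 to 23.4 CPM with a low share and 9.35 to 25.3 CPM in the others. The ratio of Scnn1g to Scnn1a in control mouse 3, 9.68% beside 13.2 to 13.7% in the other control mice, had a gap of 0.895 of the range.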

How the results depend on the processing

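None of the 9 genes was called in any of the 4 comparisons under any alternative run. Of 855 alternative log2 fold changes of the 9 genes, 813 kept their sign and 42, spread over 15 of 36 results, changed it, and in none of these fits was a gene called. For Atp1b1 between the doses the sign changed with RLE normalization (-0.0013), DESeq2 (-0.0013), limma-voom (-0.020), the mitochondrial share (-0.16) or the principal cell marker level (-0.034) as a covariate. With the mitochondrial share as a covariate it also changed for Hsd11b2 at 20 mg (-0.0030) and, between the doses, for Scnn1a (-0.027) and Sgk1 (-0.0094). Without the 4 libraries of low mitochondrial share it changed at 10 mg for Scnn1a (0.022) and Hsd11b2 (0.21), between the doses for Scnn1a (-0.082), Scnn1b (-0.072), Sgk1 (-0.050) and Hsd11b2 (-0.021), and for the mean of both doses for Scnn1g (0.18) and Hsd11b2 (0.20). The causes were not tested.

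Leaving out each library in turn turned the sign of some values. At 10 mg the ranges were -0.087 to 0.17 for Scnn1g, -0.014 to 0.71 for Fxyd4, -0.027 to 0.18 for Per1, -0.044 to 0.24 for Atp1b2 and -0.033 to 0.38 for Hsd11b1. At 20 mg Fxyd4 ranged from -0.082 to 0.51. Between the doses the ranges were -0.055 to 0.19 for Scnn1a, -0.18 to 0.24 for Scnn1b, -0.15 to 0.065 for Nedd4l, -0.37 to 0.095 for Fxyd4 and -0.10 to 0.15 for Atp1b1. For the mean of both doses they were -0.18 to 0.058 for Scnn1g and -0.13 to 0.013 for Hsd11b2. The log2 ratio of Scnn1g to Scnn1a ranged from -0.015 to 0.19 at 20 mg, and that of Scnn1b to Scnn1a from -0.35 to 0.19 between the doses.

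The number of genes called over all genes tested depended more on the processing. At 10 mg, 20 mg, between the doses and for the mean of both doses, edgeR called 5, 52, 0 and 24 genes. DESeq2 called 40, 182, 12 and 136, no filter on low counts gave 331, 416, 256 and 393, and the mitochondrial share as a covariate gave 13, 935, 29 and 184. An adjusted p under 0.05 gave 3, 23 and 13 at 10 mg, at 20 mg and for the mean. Without the 4 libraries of low mitochondrial share these counts were 26, 107 and 67. Leaving out each library gave 2 to 8, 14 to 54, 0 to 0 and 8 to 35.

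Same-numbered mice did not deviate together: 4 of 12 pairs had a correlation over 0.1 (range -0.330 to 0.317), and 3 of 12 libraries correlated best with their own number. With the replicate number as a block, 4, 27, 0 and 17 genes were called and 0 of the 9, the sign of Atp1b1 between the doses turned (-0.011), and the calls of Usp2 (adjusted p = 0.115), Ddit4 (0.182) and Slc5a2 (0.206) at 20 mg in edgeR were lost. The call of Usp2 was also lost in a fit of only the groups compared (adjusted p = 0.183). The mitochondrial share as a covariate added calls at 20 mg for Per1, Tsc22d3, Wnk1, Atp1b2, Nr3c1 and Calb1. The low counts of Nr3c2, Scnn1g and Fxyd4 add counting error.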
